A study of Mus musculus with 12 samples.

Results

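The genes that write, bind and erase ADP-ribose were examined in BMDMs, macrophages grown from mouse bone marrow, that had been cultured with the PARP inhibitor olaparib, with MNA (methyl-nicotinamide, a derivative of NAD) or with the solvent DMSO. The set comprised 10 genes chosen by name, though with earlier results of these data known: the 9 PARP genes Parp1, Parp2, Parp3, Parp4, Parp8, Parp9, Parp12, Parp14 and Tiparp, and Parg, which encodes the PAR glycohydrolase. All 10 were found among the 35275 genes listed, by their Ensembl identifiers, and all 10 passed the filter on low counts that left 12849 genes for testing. The cells came from wild-type mice aged 6 to 10 weeks. All 3 groups were differentiated over 6 days with M-CSF and IL-4 (each 20 ng/ml) plus IL-10 at 10 ng/ml, a mixture that drives an M2 (alternatively activated) phenotype, and DMSO, olaparib or MNA was present for the same 6 days. There were 4 libraries in each group, and the study's legend gives 4 donor mice.

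PARP enzymes cut NAD and attach its ADP-ribose part to proteins and nucleic acids. PARP1, PARP2 and the tankyrases build long chains of it (PAR), whereas most other family members attach a single unit, and PARG takes the chains apart again. Olaparib occupies the NAD pocket of PARP1 and PARP2, so it acts on the enzymes and not directly on their transcripts. The paper states that it mainly inhibits PARP1, PARP2 as well, and other PARP enzymes less strongly. In macrophages the family is known for the DNA damage response and as cofactors of inflammatory transcription (PARP1 and PARP2), and several members are induced by interferon and act against viruses (PARP9, PARP12, PARP14).

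The promoter sequences of 5 of the genes are shown because the results turn on how these genes moved: the largest change (Parp8), the main target enzyme of the inhibitor (Parp1), an interferon-linked gene (Parp12), a gene known as a target of the aryl hydrocarbon receptor (Tiparp), and a gene that passed neither treatment's test (Parp4). RefSeq promoter windows of build GRCm38.p6 were matched by symbol for 8 of the 10 genes. Parp9 and Parp14 had no window and were not searched, so Parp12 was the only one of these interferon-linked genes examined. Each is given 5′ to 3′ on the strand of its gene and ends before the first base of the gene model. The stretches lie at chr13:117025538-117025781 (minus strand), chr1:180568641-180568890 (plus), chr6:39118350-39118599 (minus), chr3:65528197-65528409 (plus) and chr14:56575369-56575618 (plus). Capitals mark matches to the interferon-stimulated response element, searched as GAAANNGAAA or TTTCNNTTTC, and to the core of the xenobiotic response element, searched as GCGTG or CACGC.
Parp8: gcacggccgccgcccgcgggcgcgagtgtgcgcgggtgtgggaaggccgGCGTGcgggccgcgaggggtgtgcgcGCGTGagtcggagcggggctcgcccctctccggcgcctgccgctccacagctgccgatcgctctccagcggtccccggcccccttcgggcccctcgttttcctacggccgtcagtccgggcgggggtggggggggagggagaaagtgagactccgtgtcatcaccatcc
Parp1: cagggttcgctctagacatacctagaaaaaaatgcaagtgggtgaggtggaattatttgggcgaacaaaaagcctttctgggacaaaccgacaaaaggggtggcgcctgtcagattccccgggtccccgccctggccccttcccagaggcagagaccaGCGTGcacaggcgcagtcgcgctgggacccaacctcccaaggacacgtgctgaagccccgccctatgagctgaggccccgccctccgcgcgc
Parp12: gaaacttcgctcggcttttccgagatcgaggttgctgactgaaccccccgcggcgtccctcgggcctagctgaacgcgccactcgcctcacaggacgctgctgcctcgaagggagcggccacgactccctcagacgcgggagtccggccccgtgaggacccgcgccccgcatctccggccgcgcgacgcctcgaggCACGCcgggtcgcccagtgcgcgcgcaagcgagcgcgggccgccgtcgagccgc
Tiparp: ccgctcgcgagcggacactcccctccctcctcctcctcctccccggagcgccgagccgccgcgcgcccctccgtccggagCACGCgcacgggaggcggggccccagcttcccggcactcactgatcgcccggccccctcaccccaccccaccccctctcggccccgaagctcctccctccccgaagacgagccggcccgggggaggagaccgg
Parp4: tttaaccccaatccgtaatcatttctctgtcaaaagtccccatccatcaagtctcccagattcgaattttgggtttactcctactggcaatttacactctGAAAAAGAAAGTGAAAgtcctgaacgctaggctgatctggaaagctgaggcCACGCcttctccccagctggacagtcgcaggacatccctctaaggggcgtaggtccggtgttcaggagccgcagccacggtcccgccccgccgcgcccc

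In the 250 bases before the start, Parp4 alone of the 8 genes with a window held a match to the interferon element, as 2 copies that overlap in 1 run. The window of Dtx3l, the partner gene of Parp9 and outside the set, was also searched and held no match to this element. Of all 32851 windows of that length, 2.98% held a match. The core of the xenobiotic element occurred in the windows of all 8 genes, against 28.2% of all windows. The 8 genes' windows were 54.4% to 75.2% G and C, where the median of all windows was 52.4% and that of windows holding this core 60.8%. A match to these letters is a description of the window and not a mapped binding site.

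On build GRCm38, Parp14 (chr16:35832874-35871544) and Parp9 (chr16:35938470-35972605) lie near each other, with Dtx3l (chr16:35926511-35939151), the gene of the partner protein of PARP9, between them. The other genes are Parp1 (chr1:180568924-180601254), Parp2 (chr14:50807841-50821301), Parp3 (chr9:106470322-106476949), Parp4 (chr14:56575619-56659794), Parp8 (chr13:116854820-117025537), Parp12 (chr6:39086410-39118349), Tiparp (chr3:65528410-65555518) and Parg (chr14:32201949-32297550). Values are counts over all exons of a gene. Parp9 and Dtx3l run head to head on opposite strands and share 458 exon bases, 9.40% of the exon length of Parp9, and since the setting of strand in the counting was not given in the sources used here, reads from that stretch may fall to either gene. Antisense genes also overlap Tiparp (4931440P22Rik, 223 bases), Parp4 (Gm16573, 335 bases) and Parp3 (Rrp9, 20 bases). At most 2.05% of the 31-base words of any of the 10 genes (Parp2) recur in the transcripts of another gene on the same strand.

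The total per library was 21146291 to 31446849 counts, and the depths of the groups overlapped. MNA replicate 2 stood apart from its group. The root mean square difference of log2 CPM (a gene's counts relative to its library's total) between it and the DMSO libraries was 0.334 to 0.421, against 0.902 to 0.944 from the other MNA libraries and 0.685 to 0.814 from the olaparib libraries. For 8 of the 10 genes its level fell inside the range of the DMSO libraries, and for 1, Parp4, inside that of the other MNA libraries, whereas over all tested genes it fell inside the DMSO range for 67.4%. The value without this library is therefore given beside a test result against DMSO wherever it changed the call or moved a called log2 fold change by over 1.5 times, and for the 10 genes in most other cases too. It also bore on olaparib against DMSO, because the 3 groups share 1 estimate of the spread in the fit: the common dispersion was 0.0333 with it, 0.0123 without it and 0.0104 for olaparib and DMSO alone.

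Markers of macrophages, summed over 7 genes, were at 2847 to 3281 CPM with DMSO, 3805 to 4336 with olaparib and 2826 to 4031 with MNA. Of these, Fcgr1 was low in every group (means of 0.916, 1.31 and 0.397 CPM). Means were higher with olaparib than with DMSO for Itgam (1470 against 439), Csf1r (820 against 518), Adgre1 (387 against 191) and Mertk (37.4 against 16.8). They were lower for Cd68 (839 against 1230) and for Mrc1 (571 against 679), where the libraries of Mrc1 overlapped. Summed over 5 genes, markers of the response to IL-4 were at 33060 to 53090 CPM with DMSO and 19200 to 30680 with olaparib. With MNA they ran from 1470 to 31890, where the highest value was that of MNA replicate 2. Most of this sum was Chil3, with means of 36700 CPM with DMSO, 21900 with olaparib and 8120 with MNA. The other genes had higher means with olaparib than with DMSO: Arg1 (688 against 555), Retnla (1080 against 888), Mgl2 (932 against 618) and Irf4 (150 against 143). For each of these the libraries of the 2 groups overlapped. Of the lists for other cell types, 2 were higher in all olaparib libraries than in all DMSO libraries: that of eosinophils, basophils and mast cells (30.5 to 58.2 against 3.92 to 7.11 CPM, nearly all of it Siglecf, with Epx at no more than 1 count) and that of T and NK cells (11.1 to 18.3 against 2.48 to 3.79 CPM, mostly Klrb1c). Neutrophil and erythroid genes were low except in MNA replicate 4, at up to 51.4 and 54.4 CPM, the erythroid part mainly Hba-a1. The part of these differences in the results below was not tested, and in bulk RNA fewer cells of a type and less RNA per cell cannot be told apart.

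In DMSO, per kilobase of exon, the 10 genes spanned from 18.4 ± 2.38 CPM per kb for Tiparp (SD, n = 4) to 0.559 ± 0.0567 for Parp8. Between them came Parp1 (11.4), Parp14 (10.9), Parp4 (8.71), Parp12 (8.69), Parp9 (7.39), Parp2 (6.93), Parg (6.51) and Parp3 (3.11). The DMSO libraries left a gap between neighbours in this order after Tiparp, after Parp14, after Parg and after Parp3, and overlapped between neighbours elsewhere, so that Parp1 and Parp14, Parp9 and Parp2, or Parp2 and Parg, could not be ranked beyond their spread. Parp1 was about level with the interferon-linked Parp14 and above Parp2 by more than the spread of the libraries. Of the other 7 family members, Zc3hav1, an antiviral zinc finger protein without catalytic activity, had a higher mean than any of the 10, at 45.0 CPM per kb, and the tankyrase Tnks2 was at 14.0.

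**Figure D1:**
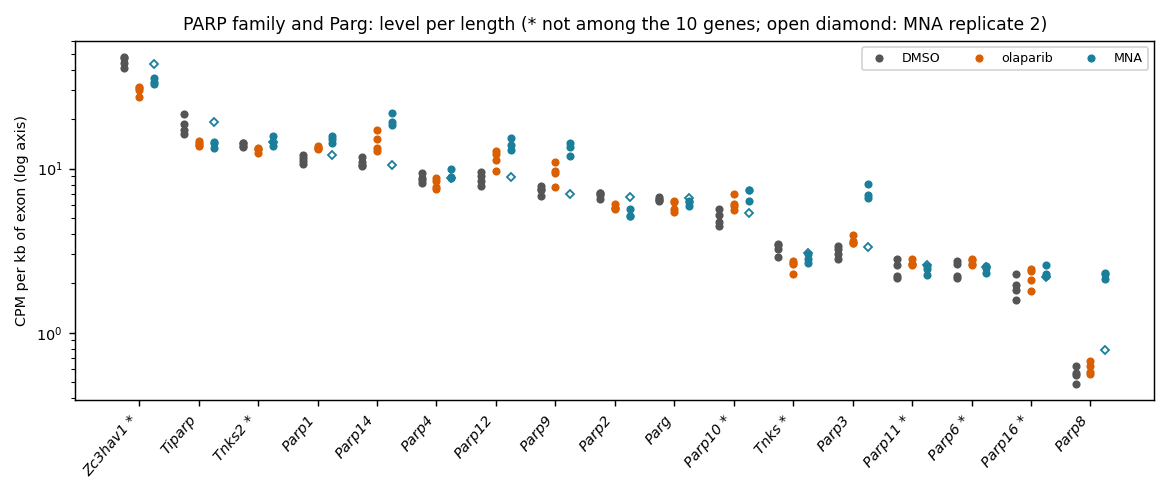
Level of the PARP family genes and Parg in each library, in CPM per kilobase of exon on a log axis; points are libraries, coloured by group and ordered by the DMSO mean. Zc3hav1 stood highest at 45.0 CPM per kb in DMSO and Parp8 lowest at 0.559, and Parp8 stood at 2.12 to 2.32 in 3 of the 4 MNA libraries.

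With olaparib, in the fit of the 12 libraries, Parp1 rose and Parp2 and Tiparp fell, and the other 7 genes did not pass the test (edgeR quasi-likelihood test, Benjamini-Hochberg adjusted p under 0.05 over all tested genes). This was 1 gene higher, where 14.3% of all tested genes were higher, and 2 lower, where 12.8% were. Without MNA replicate 2, Parp3, Parp9, Parp12 and Parp14 also passed, which made 5 higher and 2 lower, against 22.5% and 21.2% of all tested genes. With MNA, 6 genes rose (Parp1, Parp3, Parp8, Parp9, Parp12 and Parp14) and Parp2 fell, where 16.3% and 12.3% of all tested genes did, and without replicate 2 Tiparp fell too, where 27.2% were higher and 26.9% lower. Libraries of the 2 groups did not overlap for 6 of the 10 genes in olaparib against DMSO (41.0% of all tested genes) and for 2 in MNA against DMSO (12.4%), which became 8 (54.2%) without MNA replicate 2. Median log2 fold changes over the 10 genes were 0.17 with olaparib and 0.45 with MNA, beside 0.0 over all tested genes in both. The 2 comparisons share their DMSO libraries.

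**Figure D2:**
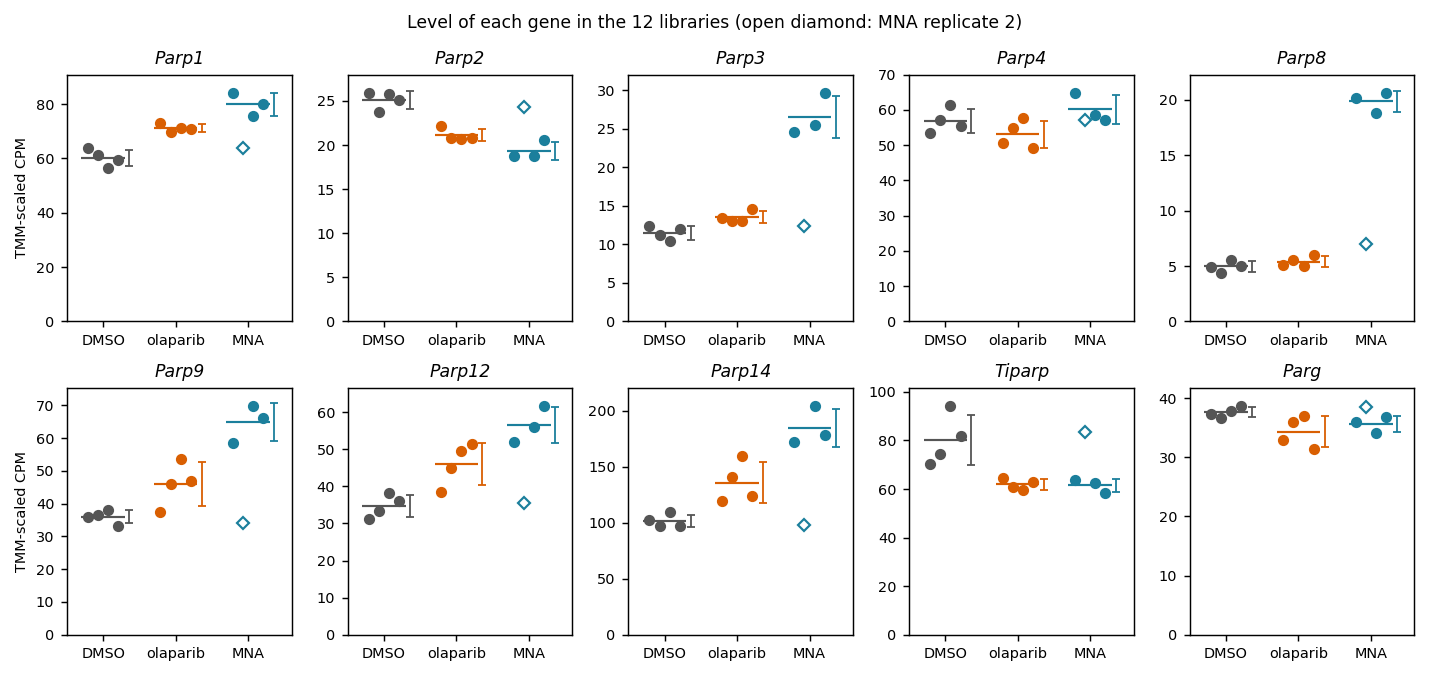
TMM-scaled CPM of the 10 genes in each of the 12 libraries; bars are the mean and SD of a group (MNA without replicate 2, drawn as an open diamond). The 3 other MNA libraries were above both other groups for Parp1, Parp3, Parp8, Parp9, Parp12 and Parp14, and below both for Parp2. Relative to the level of the gene, the gaps were largest for Parp8 and Parp3. Parp1 and Parp2 moved in opposite directions with both treatments.

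PARP1, which makes most of the PAR in a damaged cell, is the main target of olaparib. Parp1 stood at 63.8, 61.1, 56.5 and 59.3 CPM in the DMSO libraries, at 73.2, 69.9, 71.1 and 70.8 with olaparib, and at 84.2, 64.0, 75.6 and 80.0 with MNA, the second MNA value being that of replicate 2. Every olaparib library was above every DMSO library, and the 3 other MNA libraries were above every olaparib library. The log2 fold change was 0.24 ± 0.08 (SE) with olaparib (adjusted p = 0.0358; without MNA replicate 2, ± 0.05 and 0.00171) and 0.34 ± 0.08 with MNA (adjusted p = 0.0165; without replicate 2, 0.41 ± 0.05 and 2.69e-05). Olaparib against MNA was not called over 12 libraries (log2 difference −0.09, adjusted p = 0.426) and was called without MNA replicate 2 (−0.17 ± 0.05, adjusted p = 0.0253). The olaparib call was weak in the 12-library fit: it was lost on leaving out any of DMSO replicates 2, 3 and 4, any olaparib library or MNA replicate 3 (adjusted p at most 0.0967), with scaling by library totals only (0.0543) and without the filter on low counts (0.0651). The MNA call was lost without MNA replicate 3 or 4.

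PARP2, a close relative of PARP1 that also makes PAR at DNA breaks and is another target of olaparib, went the opposite way. Parp2 was at 25.9, 23.7, 25.8 and 25.1 CPM with DMSO, at 22.1, 20.8, 20.7 and 20.8 with olaparib, and at 18.8, 24.3, 18.7 and 20.6 with MNA. All olaparib libraries lay below all DMSO libraries, and of the MNA libraries only replicate 2 was within the DMSO range. Its log2 fold change was −0.25 ± 0.08 with olaparib (adjusted p = 0.045; 0.00468 without MNA replicate 2) and −0.29 ± 0.08 with MNA (adjusted p = 0.0291; −0.38 ± 0.07 and 0.000312 without replicate 2). In fits that kept MNA replicate 2, the olaparib call was lost with the replicate number as a block (adjusted p = 0.0664) and with upper quartile scaling (0.0627). It was also lost on leaving out any DMSO or olaparib library or MNA replicate 4 (up to 0.102). The olaparib call held with the block and without MNA replicate 2 together (0.00692), and in a fit of olaparib and DMSO alone (0.00524). The MNA call held in 5 of the 12 fits that each left out 1 library. The 2 treatments did not differ by the test, with a log2 difference of 0.04 (95% interval −0.15 to 0.22), or of 0.13 (−0.02 to 0.27) without replicate 2.

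PARP3, which attaches single ADP-ribose units at DNA breaks, separated the treatments. Parp3 was at 12.4, 11.2, 10.4 and 11.97 CPM with DMSO, at 13.3, 13.0, 13.0 and 14.6 with olaparib, and at 24.6, 12.4, 25.5 and 29.6 with MNA. The 3 MNA libraries other than replicate 2 were each above every other library. With MNA the log2 fold change was 1.0 ± 0.20 (adjusted p = 0.0142) and 1.21 ± 0.09 without replicate 2 (adjusted p = 1.17e-07). With olaparib it was 0.23 ± 0.20, which did not pass (adjusted p = 0.41) and passed without MNA replicate 2 (± 0.09, adjusted p = 0.042). Levels were lower with olaparib than with MNA by a log2 difference of −0.77 ± 0.20 (adjusted p = 0.0184; −0.98 ± 0.09 and 1.76e-06 without replicate 2), a call that was lost on leaving out MNA replicate 4 (0.056).

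PARG, the enzyme that degrades the chains, did not pass the test in any comparison. Parg was at 37.3, 36.6, 37.8 and 38.6 CPM with DMSO, at 33.0, 36.0, 36.9 and 31.4 with olaparib, and at 36.0, 38.5, 34.2 and 36.8 with MNA, and the groups overlapped. Its log2 fold change was −0.13 ± 0.06 with olaparib (adjusted p = 0.144; 95% interval −0.27 to 0.01) and −0.05 ± 0.06 with MNA (adjusted p = 0.584; −0.19 to 0.09). Within a library the ratio of Parp1 to Parg, per kilobase, was 1.63 to 1.87 with DMSO and 2.10 to 2.46 with olaparib, and with MNA it was 2.55, 2.42 and 2.37 and, in replicate 2, 1.82. All olaparib libraries were above all DMSO libraries, a difference of 0.38 ± 0.08 on the log2 scale. A two-sided exact permutation test without pairing gave p = 0.0286, the smallest that 4 against 4 libraries allow (0.0571 adjusted over 6 ratio tests). MNA differed from DMSO by 0.38 ± 0.12 (exact p = 0.0857, adjusted 0.129), and by 0.49 ± 0.06 without replicate 2, where all values were above DMSO but the smallest possible exact p is 0.0571.

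**Figure D3:**
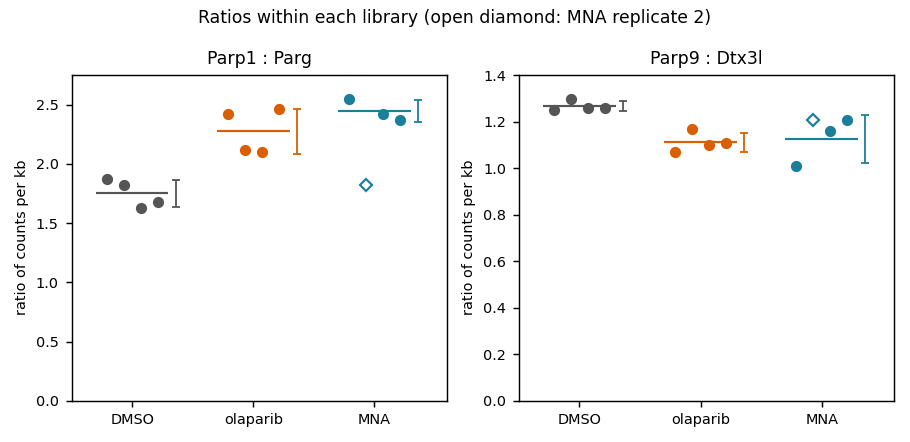
Ratio of counts per kilobase of Parp1 to Parg and of Parp9 to Dtx3l within each library; bars are the mean and SD of a group, and MNA replicate 2 is an open diamond left out of them. The first ratio was 1.63 to 1.87 with DMSO and 2.10 to 2.46 with olaparib, and the second 1.25 to 1.30 and 1.07 to 1.17.

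PARP8, a mono-ADP-ribosyltransferase of little known function, showed the largest change of the 10 genes, with MNA, and had the lowest level. Parp8 was at 4.92, 4.33, 5.56 and 5.05 CPM with DMSO, at 5.12, 5.54, 4.96 and 5.99 with olaparib, and at 20.2, 6.95, 18.8 and 20.6 with MNA. The olaparib and DMSO libraries overlapped, the 3 MNA libraries other than replicate 2 were far above the highest of them, and replicate 2 was also above the highest, 5.99. With MNA the log2 fold change was 1.74 ± 0.27 (adjusted p = 0.0142), or 2.0 ± 0.11, a 3.99-fold rise, without replicate 2 (adjusted p = 6.42e-09), and it was called in all 12 fits that left out 1 library. With olaparib it was 0.12 ± 0.27 (adjusted p = 0.764; 0.12 ± 0.11 and 0.378 without MNA replicate 2). The difference between the treatments was itself called, at −1.62 ± 0.27 for olaparib against MNA (adjusted p = 0.00171) and −1.88 ± 0.11 without replicate 2 (1.98e-08).

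PARP4, the PARP of the vault ribonucleoprotein particle, was called in none of the 3 comparisons over 12 libraries or without MNA replicate 2. Parp4 was at 53.5, 57.2, 61.3 and 55.6 CPM with DMSO, at 50.7, 54.8, 57.7 and 49.3 with olaparib, and at 64.9, 57.3, 58.4 and 57.2 with MNA. All 3 groups overlapped, and the MNA libraries included replicate 2 without a break. Its log2 fold change was −0.10 ± 0.07 with olaparib (95% interval −0.25 to 0.05) and 0.06 ± 0.07 with MNA (−0.09 to 0.21). Olaparib against MNA was at −0.16 ± 0.07 (adjusted p = 0.117; 0.0546 without replicate 2) and was called with scaling by library totals only (−0.19, adjusted p = 0.0455) and with the replicate block and without replicate 2 together (−0.19 ± 0.07, 0.0395). Its promoter is the one shown above with overlapping copies of the interferon element.

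The interferon-linked members rose with both treatments when MNA replicate 2 was left out, and more with MNA than with olaparib. PARP14 attaches single ADP-ribose units and, as background, acts in IL-4 signalling as well as in antiviral defence. Parp14 was at 103, 97.4, 109 and 97.1 CPM with DMSO, at 119, 140.4, 159.7 and 124 with olaparib, and at 172, 97.6, 204 and 178 with MNA. Every olaparib library was above every DMSO library, and 3 of the 4 MNA libraries were above every olaparib library, with replicate 2 at the DMSO level. The log2 fold change with olaparib was 0.42 ± 0.18 (adjusted p = 0.0975), or ± 0.09 and 0.0019 without MNA replicate 2, and with MNA 0.68 ± 0.18 (adjusted p = 0.0216), or 0.86 ± 0.09 and 4.61e-06.

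PARP12, an antiviral mono-ADP-ribosyltransferase, followed the same order. Parp12 was at 31.2, 33.4, 38.2 and 36.0 CPM with DMSO, at 38.5, 45.0, 49.4 and 51.4 with olaparib, and at 51.9, 35.5, 55.9 and 61.6 with MNA. The lowest olaparib library was just above the highest DMSO library, and only replicate 2 of the MNA libraries was in the DMSO range. With olaparib the log2 fold change was 0.41 ± 0.15 (adjusted p = 0.0594), which passed with the replicate number as a block (0.0304) and without MNA replicate 2 (0.40 ± 0.09, adjusted p = 0.00298). With MNA it was 0.56 ± 0.15 (adjusted p = 0.0224), or 0.70 ± 0.10 without replicate 2 (4.33e-05).

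PARP9 forms a complex with the ubiquitin ligase DTX3L, and the 2 genes share a promoter region. Parp9 was at 35.9, 36.7, 38.1 and 33.3 CPM with DMSO, at 37.6, 45.9, 53.7 and 46.9 with olaparib, and at 58.6, 34.1, 69.8 and 66.3 with MNA. Olaparib replicate 1 overlapped the DMSO libraries and the 3 others were above them. The log2 fold change was 0.35 ± 0.18 with olaparib (adjusted p = 0.165; ± 0.09 and 0.00783 without MNA replicate 2) and 0.67 ± 0.18 with MNA (adjusted p = 0.0244; 0.85 ± 0.10 and 8.2e-06). Over the 12 fits that left out 1 library, the MNA calls of Parp9, Parp14 and Parp12 held in 6, 7 and 8.

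Dtx3l had larger fold changes than its partner in both comparisons. It was at 33.9, 33.1, 35.5 and 31.2 CPM with DMSO, at 41.4, 46.2, 57.4 and 49.5 with olaparib, and at 67.9, 33.2, 70.9 and 64.5 with MNA, with a log2 fold change of 0.54 ± 0.19 with olaparib (adjusted p = 0.0542; 0.00021 without MNA replicate 2) and 0.82 ± 0.19 with MNA (adjusted p = 0.0169; 1.02 ± 0.09 and 5.76e-07). The ratio of Parp9 to Dtx3l per kilobase was 1.25 to 1.30 with DMSO, 1.07 to 1.17 with olaparib and 1.01 to 1.21 with MNA, so both treated groups lay wholly below DMSO. These were log2 differences of −0.19 ± 0.03 and −0.15 ± 0.06 (two-sided exact permutation test without pairing, p = 0.0286 each, adjusted p = 0.0571 each). Reads from the 458 shared exon bases enter this ratio in a way that was not tested.

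Between the treatments, Parp9, Parp12 and Parp14 were lower with olaparib than with MNA by −0.31, −0.15 and −0.26 on the log2 scale, none of which was called over 12 libraries. Without MNA replicate 2 the differences were −0.50 ± 0.10, −0.29 ± 0.10 and −0.44 ± 0.09, and all 3 were called (adjusted p = 0.00117, 0.027 and 0.00189). Over the 10 genes, olaparib against MNA gave 0 higher and 2 lower (Parp3 and Parp8), where 10.9% of all tested genes were higher and 10.9% lower, and without replicate 2 it gave 0 higher and 6 lower (also Parp1, Parp9, Parp12 and Parp14), where 21.5% and 20.7% were. Libraries of the 2 groups did not overlap for 1 gene (21.2% of all tested genes) and, without replicate 2, for 7 (46.2%). With edgeR over 12 libraries, 3 of the 10 genes had an unadjusted p under 0.05 (4527 of 12849 tested genes did). These were Parp3, Parp4 and Parp8, each lower with olaparib. DESeq2 called 0 higher and 2 lower, and 26.1% of all tested genes in either direction.

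**Figure D4:**
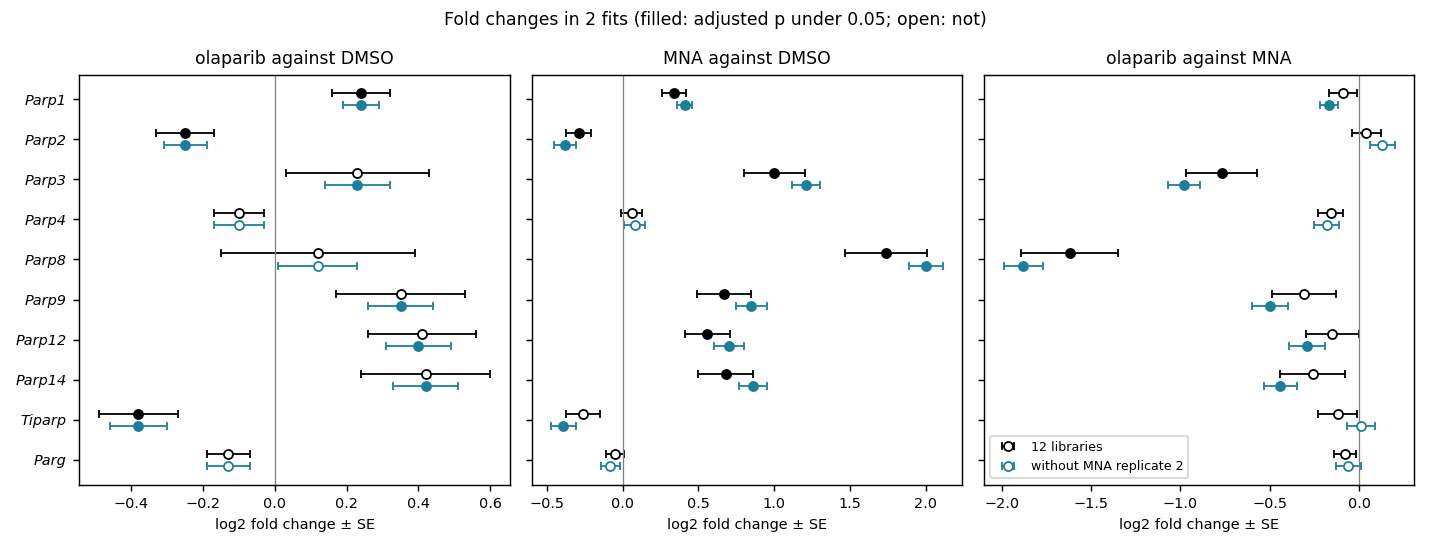
Log2 fold change and SE of the 10 genes in the 3 comparisons, in the fit of 12 libraries (black) and without MNA replicate 2 (blue); filled points have an adjusted p under 0.05. With MNA, Parp8 (1.74 and 2.0) and Parp3 (1.0 and 1.21) stood far to the right of the others, and leaving out the library narrowed the errors of olaparib against DMSO and left its estimates nearly where they were.

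A list of 26 interferon-stimulated genes, none of them a PARP, showed another balance between the treatments. With olaparib 20 rose (14.3% of all tested genes did), with a median log2 fold change of 1.14, and without MNA replicate 2 all 26 rose (22.5%). With MNA 11 rose (16.3%) and 1, Oas1a, fell (12.3%), with a median of 0.50 (17 and 3 without replicate 2, beside 27.2% and 26.9%). In olaparib against MNA, 11 of the 26 were higher with olaparib (10.9% of all tested genes). Without replicate 2, 12 were higher (21.5%) and 4 lower (20.7%). Of Parp9, Parp12 and Parp14 none was higher with olaparib in either fit. The 4 of the second fit that were lower with olaparib, named after their values were seen, were Ifit2, Stat2, Zbp1 and Herc6.

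Among these genes, Oasl2, an antiviral OAS family member, was at 13.5 ± 2.44 CPM with DMSO, 48.5 ± 11 with olaparib and 19.6 ± 5.71 with MNA (SD, n = 4), a log2 fold change of 1.84 ± 0.23 with olaparib (adjusted p = 0.000309) beside 0.53 ± 0.22 with MNA (0.0867), which was called without replicate 2 (0.63 ± 0.21, adjusted p = 0.0217). Usp18, which removes ISG15 from proteins, was at 15.6, 41.8 and 21.1 CPM (1.43 ± 0.21 with olaparib, adjusted p = 0.000947; 0.44 ± 0.21 with MNA, 0.123, and 0.59 ± 0.17, 0.0107 without replicate 2). Both were higher with olaparib than with MNA (1.31 ± 0.22, adjusted p = 0.0019, and 0.99 ± 0.21, 0.00639), also without replicate 2 (1.2 ± 0.21, 0.000473, and 0.83 ± 0.17, 0.00156). Oas2 and Xaf1 were likewise higher with olaparib than with DMSO (2.20 ± 0.33, adjusted p = 0.000976, and 0.80 ± 0.11, 0.000775) and than with MNA (2.89 ± 0.34, 0.000188, and 0.67 ± 0.11, 0.00195). Oas2 was at −0.68 ± 0.35 with MNA against DMSO (adjusted p = 0.147) and was called lower without replicate 2 (−0.95 ± 0.35, 0.0344).

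**Figure D5:**
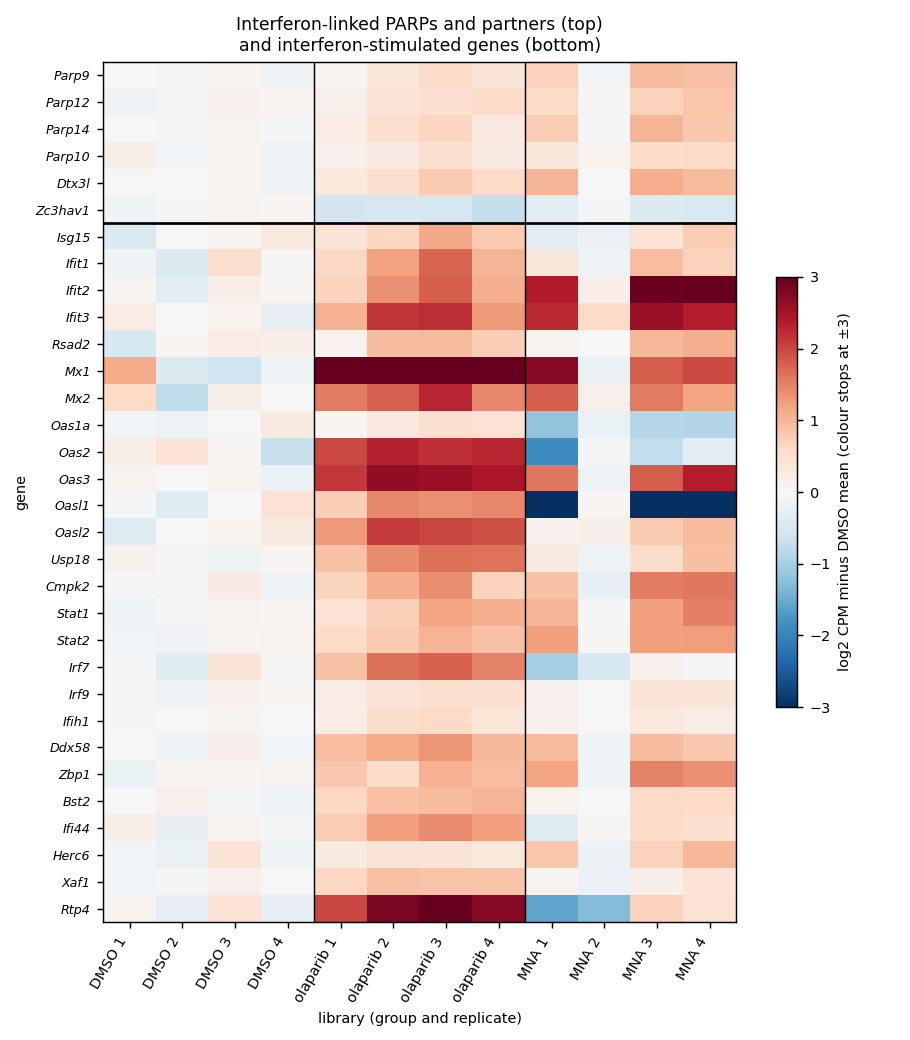
Log2 CPM of interferon-linked PARP genes and partners (above the line) and of 26 interferon-stimulated genes (below) in each library, as the difference from the DMSO mean, with colours stopped at ±3. Oas2 and Oasl1 are above 0 in the 4 olaparib libraries and below 0 in the 3 MNA libraries other than replicate 2. In replicate 2 Oas2 is at −0.05 and Oasl1 at 0.07. Parp9, Parp14 and Dtx3l are deepest in the same 3 MNA libraries.

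TIPARP is a mono-ADP-ribosyltransferase whose gene is induced by the aryl hydrocarbon receptor and which represses that receptor in turn. Tiparp was at 70.5, 74.6, 94.1 and 82.0 CPM with DMSO, at 64.4, 60.9, 59.5 and 62.7 with olaparib, and at 63.6, 83.6, 62.4 and 58.5 with MNA. All olaparib libraries and the 3 MNA libraries other than replicate 2 were below every DMSO library. The log2 fold change was −0.38 ± 0.11 with olaparib (adjusted p = 0.0289; ± 0.08 and 0.00129 without MNA replicate 2), and with MNA −0.26 ± 0.11, which did not pass (adjusted p = 0.094), or −0.39 ± 0.08 without replicate 2, which did (0.00133). The olaparib call was lost on leaving out DMSO replicate 3 or 4 or olaparib replicate 2, 3 or 4 (adjusted p at most 0.0878). Without replicate 2 the treatments differed by 0.01 (95% interval −0.17 to 0.19).

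The receptor's other genes did not move as 1 group. Of the 5 tested of 6, 1 rose (Nqo1, a quinone reductase) and 1 fell (Arnt, the receptor's partner) with olaparib, where 14.3% and 12.8% of all tested genes did. With MNA 2 rose (Ahrr, a repressor of the receptor, and Nqo1), where 16.3% did. Without MNA replicate 2 it was 3 and 1 with each treatment, where 22.5% rose and 21.2% fell with olaparib and 27.2% and 26.9% with MNA. Nqo1 was at 4.08 ± 0.945 CPM with DMSO, 24.3 ± 2.84 with olaparib and 7.76 ± 3.45 with MNA (log2 fold change 2.58 ± 0.30 with olaparib, adjusted p = 0.00023, and 0.93 ± 0.30 with MNA, 0.038). Cyp1b1, a cytochrome P450, was at 34.7, 85.9 and 10.7 CPM, where 10.7 is an average of replicate 2 at 35.4 and a mean of 2.46 in the 3 other MNA libraries. It was not called against DMSO over 12 libraries (1.31 ± 0.73 with olaparib, adjusted p = 0.193; −1.68 ± 0.76 with MNA, 0.105) and was called in both directions without replicate 2 (1.31 ± 0.22, 0.000363; −3.81 ± 0.33, 4.21e-07), while Ahrr was at 2.85, 5.74 and 8.97 CPM (MNA log2 fold change 1.67 ± 0.46, adjusted p = 0.0251; olaparib 1.03 ± 0.46, 0.114, and 0.0148 without MNA replicate 2).

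Of the 7 other family members, 2 fell with olaparib (12.8% of all tested genes), and 1 rose (16.3%) and 1 fell (12.3%) with MNA. Without MNA replicate 2, 1 rose and 2 fell with each treatment, where 22.5% rose and 21.2% fell with olaparib and 27.2% and 26.9% with MNA. The list's median log2 fold changes over 12 libraries were 0.12 and 0.02. Zc3hav1 fell with both, from 293 ± 20.2 CPM to 196 ± 11.7 with olaparib (log2 fold change −0.58 ± 0.09, adjusted p = 0.00131) and to 237 ± 31.6 with MNA (−0.31 ± 0.09, 0.0303). It was also lower with olaparib than with MNA (−0.28 ± 0.09, adjusted p = 0.0464), although it is known as an interferon-linked antiviral factor like Parp9, Parp12 and Parp14. The tankyrase Tnks fell with olaparib from 48.6 to 38.5 CPM (−0.34 ± 0.08, 0.00934; with MNA −0.18 ± 0.08, 0.101), and without MNA replicate 2 it was called lower with MNA too (−0.20 ± 0.08, adjusted p = 0.0406). Parp10, a mono-ADP-ribosyltransferase, rose with MNA from 21.4 to 28.4 CPM (0.41 ± 0.12, 0.028), and with olaparib was at 26.2 (0.29 ± 0.12, adjusted p = 0.083; 0.0199 without MNA replicate 2).

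Of 21 genes whose products remove or bind ADP-ribose or work beside PARP1, 20 were tested. Over 12 libraries 1 rose and 3 fell with olaparib while 5 rose and 3 fell with MNA. Without MNA replicate 2 it was 3 and 5 with olaparib (22.5% and 21.2% of all tested genes) and 5 and 4 with MNA (27.2% and 26.9%). Over 12 libraries 14.3% of all tested genes were higher and 12.8% lower with olaparib, and 16.3% and 12.3% with MNA. The 12-library counts over 20 genes are small and were not tested against these shares. The list's median log2 fold changes were 0.03 and −0.01. Those that fell with olaparib were Lig3, the DNA ligase of single-strand break repair (20.3 to 15.3 CPM, −0.41 ± 0.12, adjusted p = 0.0252, and called with MNA only without replicate 2, −0.30 ± 0.09, 0.0109), Aplf, a PAR-binding repair factor (12.9 to 10.1 CPM, −0.35 ± 0.10, 0.0223), and Oard1, which removes ADP-ribose from glutamate (12.4 to 9.68 CPM, −0.36 ± 0.12, 0.0491). Polb, the polymerase of base excision repair, rose with both treatments, from 5.89 to 8.38 CPM with olaparib (0.51 ± 0.15, 0.0269) and to 8.22 with MNA (0.48 ± 0.15, 0.0353). In olaparib against MNA 2 genes of the list were higher and 3 lower (10.9% of all tested genes each), and 4 and 6 without replicate 2 (21.5% and 20.7%). Lower were Aplf, at 13.0 CPM with MNA (−0.35 ± 0.10, adjusted p = 0.0231), Oard1, at 13.1 CPM with MNA (−0.43 ± 0.12, 0.0273), and Rnf146, the ubiquitin ligase that reads PAR chains, which was at 24.2 CPM with DMSO, 21.4 with olaparib and 27.8 with MNA (−0.38 ± 0.07, 0.00226). Rnf146 was called higher with MNA than with DMSO (0.20 ± 0.07, adjusted p = 0.0427), and lower with olaparib only without MNA replicate 2 (−0.18 ± 0.06, 0.0333; over 12 libraries 0.0604).

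Hpf1, whose product directs PARP1 and PARP2 to serine, rose with MNA from 12.9 ± 1.48 to 17.1 ± 2.09 CPM (0.41 ± 0.11, adjusted p = 0.0223) and was at 14.9 with olaparib (0.21 ± 0.11, 0.164). Tep1, a protein of the vault particle, rose with MNA from 262 to 429 CPM (0.71 ± 0.19, 0.0231) and was at 376 with olaparib (0.52 ± 0.19, 0.0604; 0.000389 without MNA replicate 2). Chd1l, a PAR-activated chromatin remodeller, was at 21.7, 18.8 and 21.3 CPM and was called with olaparib only without MNA replicate 2 (−0.21 ± 0.07, adjusted p = 0.0198). The 3 genes that fell with MNA, named after their values were seen, were Enpp1, an ectonucleotidase (9.34 to 2.89 CPM, −1.68 ± 0.44, adjusted p = 0.0215), Xrcc1, the scaffold of single-strand break repair (25.5 to 21.4 CPM, −0.25 ± 0.09, 0.0435), and Mvp, the major vault protein (132 to 108 CPM, −0.29 ± 0.08, 0.0224). The 2.89 CPM of Enpp1 averages replicate 2 at 6.91 and a mean of 1.55 in the 3 other MNA libraries, and without replicate 2 its log2 fold change was −2.60 ± 0.21 (adjusted p = 2.83e-07). Enpp1 and Xrcc1 were the 2 genes of the list that were higher with olaparib than with MNA (1.61 ± 0.44, adjusted p = 0.0222, and 0.30 ± 0.09, 0.0251).

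Of 18 genes of proliferation, 7 rose with olaparib (14.3% of all tested genes did) and 4 with MNA (16.3%). The list's median log2 fold changes were 0.97 and 0.68. Without MNA replicate 2, 14 rose with olaparib (22.5%), and 12 rose (27.2%) and 1 fell (26.9%) with MNA. Pcna, the sliding clamp of replication, was at 224 ± 13.8 CPM with DMSO, 328 ± 14.6 with olaparib and 340.0 ± 75.8 with MNA (0.55 ± 0.14, adjusted p = 0.0125, and 0.60 ± 0.14, 0.016), and Cdk1 at 6.73, 16.2 and 13.9 CPM (1.27 ± 0.31, 0.0124, and 1.05 ± 0.31, 0.0301). Cenpa, the centromeric histone, was at 14.1, 33.4 and 44.7 CPM (1.25 ± 0.36, 0.0237, and 1.67 ± 0.36, 0.0147), and the cyclin gene Ccna2 at 2.27, 7.81 and 6.23 CPM (1.80 ± 0.52, 0.0254, and 1.46 ± 0.52, 0.0529, or 1.78 ± 0.39, 0.00167 without MNA replicate 2). These moved in the same libraries as Parp1, and their part in its rise was not tested.

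Across the 12 libraries, the genes whose pattern lay closest to that of Parp1 among 9367 genes, by the root mean square difference of centred log2 CPM, were Sirt7 (0.0531), Dnm1l (0.0574), Faap100 (0.0615), Arpc2 (0.0625) and Gpkow (0.0633), against a median of 0.258 over all genes. For Parp14 they were Pld3 (0.0641), Znfx1 (0.0750), Parp9 (0.0765), Abcc4 (0.0855) and Arhgap9 (0.0873), with a median of 0.414, so that 1 of its 5 nearest was its chromosomal neighbour among the PARP genes. For Tiparp they were Gpbp1 (0.0727), Kansl1 (0.0731), Nfyc (0.0755), Sugt1 (0.0774) and Tmx3 (0.0776), with a median of 0.269. These distances are descriptions over libraries that share treatment and depth.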

How the data were processed

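The authors prepared stranded mRNA libraries, aligned the reads with STAR 2.5.2b to GRCm38 (Ensembl release 99) and deposited raw read counts per gene for each of the 12 libraries; DESeq2 and R 3.6.0 are also named in the submitters' processing notes. The dose of olaparib and of MNA and the strand setting of the counting were not given in the sources used here. Symbols came from GENCODE M21, which named 34490 of the 35275 listed genes.

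Counts were analysed in R 4.3.3 with edgeR 4.0.16 (TMM normalization, filterByExpr with a minimum count of 10 and a minimum total of 15, quasi-likelihood F test) in 1 fit of all 12 libraries without a block, and Benjamini-Hochberg adjustment ran over the 12849 genes left (13023 without MNA replicate 2). SEs are the log2 fold change divided by the square root of F, with 95% intervals from the t distribution. CPM are TMM-scaled, and log2 CPM used a prior count of 2. CPM per kb divides by exon length. Ratios were taken within a library and tested by exact permutation with p adjusted over 6 tests. DESeq2 1.42.0 was an alternative, with other scalings, filters, thresholds and left-out libraries. The 12-library models of edgeR and DESeq2, without a block, were first tested on simulated data for olaparib against DMSO only. Total counts were 21146291 to 31446849 per library, which bounds counting error only, and p-values measure the spread between libraries, which the labels do not tie to single mice.

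To check pairing, each library's deviation from its group mean was correlated across genes between olaparib and DMSO libraries of the same number. Pearson's r was 0.227, 0.172, 0.225 and 0.408 for numbers 1 to 4, all over 0.1, and the numbers were taken to pair these libraries. The main fit and the printed ratio tests did not use this pairing. A fit with the replicate number as a block is given below. For a ratio, a sign-flip test of 4 pairs cannot give a p under 0.125. The 10 genes, the other lists and the alternatives were chosen with earlier results of these data known. All 10 genes are named, along with at most 12 genes of the 2 ADP-ribose lists and 4 of each other list by smallest p in olaparib against DMSO, and the 5 nearest genes to Parp1, Parp14 and Tiparp with a mean of at least 5 CPM. Other genes of these lists that are named (Enpp1, Xrcc1, Mvp, Parp6, Parp11, Parp16, Tnks2 and further interferon-stimulated genes) and the marker genes were chosen after their values were seen. Promoter windows were those of RefSeq.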

Additional observations from a re-analysis of the deposited data

Results flagged for a closer look

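In groups of 4 libraries, a library was picked out where its gap to the nearest of the others, divided by the range of the group, exceeded Dixon's 95% critical value. This held for 3 of 36 groups of member levels and ratios, where chance gives about 1 in 20. Parp8 in MNA replicate 2 was at 6.95 CPM against 18.8 to 20.6 in the other MNA libraries (gap over range 0.869). Parp4 in MNA replicate 1 was at 64.9 CPM against 57.2 to 58.4 (0.837), and Parp2 in olaparib replicate 1 at 22.1 CPM against 20.7 to 20.8 (0.881).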

How the results depend on the processing

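Of 630 values of the 10 genes (3 comparisons under 21 alternatives), 527 kept their direction and their side of the threshold, 71 lost the call, 28 gained it and 4 changed sign, none of the 4 called. The sign changes were in olaparib against MNA: Parp2 at −0.01 and −0.02 without MNA replicates 1 and 3, and Tiparp at 0.01 without MNA replicate 2 and 0.03 with the replicate block as well. With 1 library left out, these differences ranged from −0.02 to 0.13 for Parp2 and from −0.18 to 0.01 for Tiparp. Of the 10 genes, 3 were called in olaparib against DMSO (27.0% of all tested genes), and 1 without a filter on low counts (13.7%), 7 in a fit of these 2 groups alone (45.4%), 0 at an adjusted p under 0.01 (10.8%), and 0 to 7 when 1 library was left out, 7 being the number without MNA replicate 2 (43.7%) and 0 that without DMSO replicate 3 or 4 or olaparib replicate 2, 3 or 4 (16.6% to 18.8%). In MNA against DMSO 7 were called (28.6%). In the 2 groups alone edgeR called 0 of them and 0 of all tested genes, and 7 had an unadjusted p under 0.05 (4728 of 12379 tested genes did). At 0.01 it was 0, again 0 of all tested genes. With 1 library left out it was 2 to 8, fewest without MNA replicate 3 (3.55%) or 4 (3.86%) and most without MNA replicate 2 (54.1%). In olaparib against MNA 2 were called (21.8%), 1 in the 2 groups alone (14.4%) and 1 at 0.01 (9.07%). With 1 library left out it was 1 to 6, fewest without MNA replicate 4 (15.3%) and most without MNA replicate 2 (42.3%). The difference in the ratio of Parp1 to Parg between olaparib and MNA was 0.00 and ran from −0.11 to 0.06 with 1 library left out, changing sign. The causes were not tested.

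With the replicate number as a block, 3 of the 10 genes were called for olaparib (28.8% of all tested genes) and 7 for MNA (32.4%), each against DMSO. Between the treatments 2 were called (22.2%). With the block and without MNA replicate 2 these were 7, 8 and 7 (47.0%, 55.0% and 44.1%), and Parp4 was among those called between the treatments. In olaparib against DMSO over 12 libraries, the block ended the call of Parp2 and added that of Parp12, and changed no other of the 10. Without MNA replicate 2, Parp2 was called with the block too. Same-numbered MNA and DMSO libraries had correlations of 0.242, 0.114, −0.009 and 0.277, and olaparib and MNA libraries 0.07, 0.137, 0.131 and 0.392. Between different numbers they ran from −0.192 to 0.153 and from −0.265 to 0.14. The same-numbered values were not all over 0.1, so the numbers were not taken to pair the MNA libraries. This check cannot decide it, because the MNA mean includes replicate 2. The block still used the number in all groups.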

Other observations

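Of the other family members, Parp6, Parp11 and Parp16 passed the test in no comparison over 12 libraries. Parp6 was at 18.9 ± 2.17 CPM with DMSO, 21 ± 0.873 with olaparib and 19.1 ± 0.791 with MNA (SD, n = 4), Parp11 at 17.2 ± 2.21, 18.7 ± 0.737 and 17.3 ± 1.01, and Parp16 at 7.43 ± 1.11, 8.50 ± 1.14 and 9.02 ± 0.714. The tankyrase Tnks2 was at 145 ± 4.11, 136 ± 3.94 and 153 ± 8.86 CPM, and was lower with olaparib than with MNA by −0.17 ± 0.05 on the log2 scale (edgeR quasi-likelihood test, adjusted p = 0.0388). Without MNA replicate 2 that difference was −0.18 ± 0.06 (adjusted p = 0.0251).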
